A study of Sesbania grandiflora with 21 samples.

Results

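Transcript levels in leaves of the legume tree Sesbania grandiflora were compared between the titles DS-L and Y-L, which carry the suffix L and a single treatment label each. The comparison used 6 of the 21 libraries of the series, chosen by their titles as 3 DS-L and 3 Y-L libraries. The titles, which were followed, give 7 groups, whereas the submitters' design text counts 4. The other groups are DS-S, Y-S, DS+Y-L, DS+Y-S and ck, again with 3 libraries each. All libraries were made from leaf RNA enriched for messenger RNA on oligo(dT) beads. The labels do not expand DS, Y, L, S or ck, and although the title of the series speaks of drought and salt stress combined, it does not tie a letter to either. The sources used here give no plant age, dose, duration or genotype. Whether replicates are separate plants is not stated, so p-values measure only the spread between libraries, and that spread may be technical.

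Drought and salinity both lower the water available to a leaf. In plants generally, both act through osmotic stress and the hormone abscisic acid, which closes stomata and induces protective proteins and compatible solutes. Salinity adds an ionic part, since sodium that reaches the leaf has to be kept out of the cytosol or stored in the vacuole. A direct comparison of 2 single treatments asks which transcripts differ between them, without passing through an untreated group.

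Levels were read from counts per assembled gene and are given as CPM, counts scaled to a common library size by TMM. The 97500 identifiers are of the Trinity kind used for de novo assemblies, and the files do not pair them with gene names. Roles of single genes are therefore not given, only 4 identifiers are printed, and the leaf label was not checked against marker genes. An assembled gene can carry part of the reads of a close copy or allele. In bulk leaves, fewer cells of a type and less RNA per cell cannot be told apart. Total counts ran from 16431940 to 19318134 in the DS-L libraries and from 16947414 to 18099353 in the Y-L libraries. Genes with at least 1 count numbered 58202, 54153 and 51607 in DS-L replicates 1 to 3, and 55091, 47279 and 57019 in Y-L replicates 1 to 3. The groups overlapped in both measures (exact permutation p = 0.7 each, two-sided, 0.9 when adjusted over 4 library measures, with 0.1 the smallest p that 3 against 3 libraries allow).

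The profiles of the 6 libraries showed how far the groups stood apart as wholes. The root mean square difference of log2 CPM over 38211 tested genes was 0.879, 1.08 and 1.49 between pairs of DS-L libraries. It was 0.980, 1.28 and 1.35 between pairs of Y-L libraries, and from 1.12 to 1.61 over the 9 pairs of a DS-L with a Y-L library. Pairs across the groups thus overlapped with pairs inside them. DS-L replicates 2 and 3 differed more from each other, at 1.49, than DS-L replicate 3 did from Y-L replicate 1, at 1.12. Group labels held 30.9% of the variation between the 6 profiles. That was the highest of the 20 assignments of 3 libraries, with 29.95% the next highest (exact permutation p = 0.1, the smallest this design allows).

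**Figure D1:**
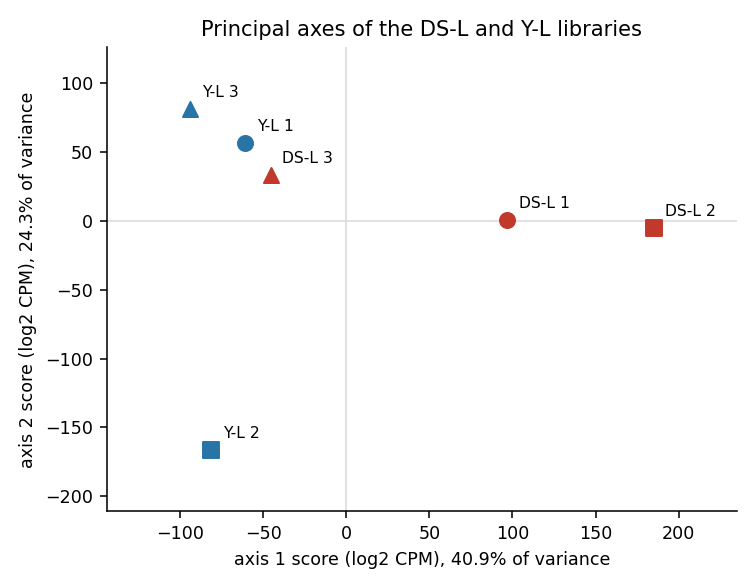
Scores of the 3 DS-L and 3 Y-L libraries on the first 2 principal axes of log2 CPM over 38211 genes, each point 1 library. DS-L replicates 1 and 2 score 96.9 and 185 on axis 1, while DS-L replicate 3 scores -45.5 and lies beside the Y-L libraries, which run from -94.0 to -61.1.

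On the first axis, which held 40.9% of the variance, the DS-L libraries scored 96.9, 185 and -45.5 and the Y-L libraries -61.1, -81.3 and -94.0. All DS-L scores lay above all Y-L scores, but DS-L replicate 3 was separated from the nearest Y-L library by far less than from the other DS-L libraries. The second axis, with 24.3% of the variance, set Y-L replicate 2 at -166 apart from the other libraries, which lay between -5.23 and 81.1. Y-L replicate 2 also had the fewest genes with a count of the 6.

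Gene by gene, no difference between DS-L and Y-L passed the threshold of the main test. edgeR's quasi-likelihood test, fitted to all 21 libraries, called 0 of 38211 genes at an adjusted p under 0.05 (0% called), and the smallest adjusted p was 0.258. Without adjustment, 3427 genes had a p under 0.05, or 8.97% of all tested. Of these, 1644 were higher in DS-L (4.3% of those tested) and 1783 were lower (4.67%). The median absolute log2 difference was 0.54, against a median standard error of 0.77, so the typical difference was smaller than its own error. An absolute log2 difference of 1 or more was reached by 10532 genes, or 27.6%.

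Other tests of the same counts gave other numbers of calls. DESeq2 called 336 of the 38211 genes, 115 higher and 221 lower in DS-L. With library weights, limma-voom called 4430, at a weight of 12.8 on DS-L replicate 1 and weights from 0.579 to 1.53 on the other 5 libraries. Of the 336 DESeq2 calls, 263 (78.3%) had DS-L and Y-L libraries that did not overlap, against 16.5% of all tested genes. The unadjusted threshold in edgeR was passed by 321 of the 336, against 8.97% of all tested genes, and limma-voom also called 301. These counts come from the same libraries, so their agreement supports nothing.

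The unadjusted count depended on the libraries, DS-L replicates most of all. On the same genes it was 2084 without DS-L replicate 1, 1541 without replicate 2 and 4939 without replicate 3. It lay between 2517 and 3393 when 1 Y-L library was left out. Without DS-L replicate 3 edgeR called 5 genes, all higher in DS-L, and without Y-L replicate 2 it called 1, lower in DS-L.

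The levels themselves show in which genes the libraries of the 2 groups did not overlap. All 3 DS-L libraries lay above all 3 Y-L libraries in 2844 genes (7.44% of those tested) and below them in 3443 (9.01%), together 16.5%. Where 3 against 3 libraries differ only at random, full separation in either direction has a probability of 0.1 per gene. Many of these genes can therefore be apart without a difference between the groups. Genes that vary together can also move the share over genes off that value. The balance of these genes differed with abundance. Among 13765 genes averaging under 1 CPM over the 6 libraries, 7.54% lay above and 7.11% below. Among 10664 genes of 10 to 100 CPM, 6.91% lay above and 10.3% below, and among 2154 genes of 100 CPM or more, 5.34% lay above and 10.5% below. The unadjusted edgeR test was more evenly split, with 459 genes higher and 499 lower in DS-L under 1 CPM, 534 and 589 at 10 to 100 CPM, and 89 and 112 at 100 CPM or more. With DESeq2 size factors the shares without overlap at 100 CPM or more were 5.43% above and 10.2% below, and with library totals 5.48% above and 12.4% below.

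**Figure D2:**
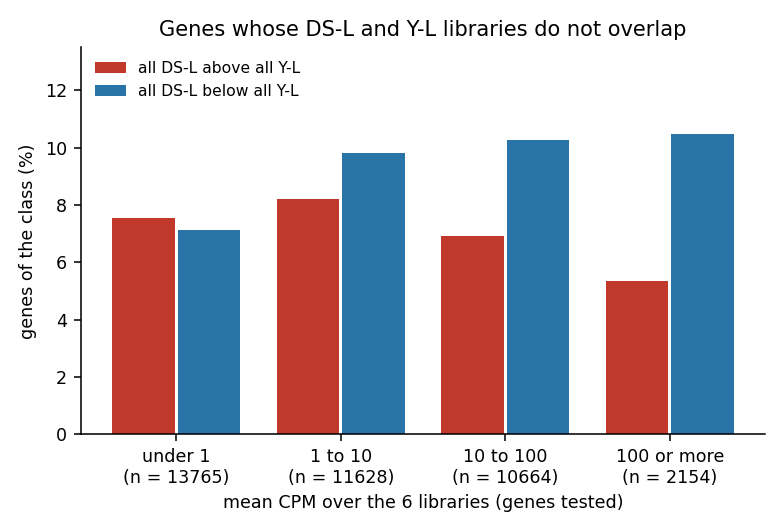
Share of tested genes in which the 3 DS-L libraries lie wholly above (left bars) or wholly below (right bars) the 3 Y-L libraries, by mean CPM over the 6 libraries. The shares are nearly equal under 1 CPM, at 7.54% and 7.11%, and differ most at 100 CPM or more, at 5.34% and 10.5%.

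Wide gaps more often had DS-L on the lower side. In 98 genes the lowest DS-L library reached 1 CPM and was at least 2-fold higher than the highest Y-L library (0.256%). The reverse, with the lowest Y-L library at least 2-fold above the highest DS-L library, held for 331 genes (0.866%). The counts were 99 and 327 with DESeq2 size factors and 104 and 294 with library totals. A further rule took genes without overlap, with an absolute log2 difference of at least 1 and, in the group that was higher, a mean no lower than 5 CPM. It gave 385 genes higher in DS-L (1.01%) and 803 lower (2.1%). Their median log2 differences were 1.42 and -1.63, and 30 of the 385 and 135 of the 803 reached an absolute value of 3. These sets were chosen on DS-L and Y-L levels, so the differences describe them and support nothing.

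From these sets, the 2 genes on each side with the smallest p are described in full. Among genes higher in DS-L, TRINITY_DN5820_c0_g1 stood at 708, 1130 and 232 CPM in DS-L replicates 1 to 3, against 116, 134 and 95.3 CPM in Y-L replicates 1 to 3. The groups did not overlap, and DS-L replicate 3 was much the lowest of its group. The means were 690 ± 449 CPM in DS-L and 115 ± 19.4 CPM in Y-L (SD, n = 3 each), a log2 difference of 2.58 (SE 0.48, edgeR adjusted p = 0.258). Y-L was close to the mean of ck, 113 ± 49.9 CPM (SD, n = 3). Averages elsewhere were 270 CPM for DS-S, 321 for Y-S, 178 for DS+Y-L and 389 for DS+Y-S. DS-L was therefore the highest mean of the 7 groups and Y-L stood beside ck at the low end, though DS-L replicate 3 lay inside the range of DS-S, from 204 to 398 CPM.

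TRINITY_DN11395_c0_g1 had 24.4, 33.6 and 15.4 CPM in DS-L, against 3.25, 5.002 and 2.18 CPM in Y-L. Its lowest DS-L library was 3.08-fold above its highest Y-L library. The log2 difference was 2.82 (SE 0.54, edgeR adjusted p = 0.258), from means of 24.5 ± 9.11 CPM in DS-L and 3.48 ± 1.43 CPM in Y-L (SD, n = 3 each). The ck mean lay between them, at 10.7 ± 5.99 CPM (SD, n = 3). Against ck, DS-L differed by 1.19 and Y-L by -1.63 on the log2 scale, and neither passed the threshold (edgeR adjusted p = 0.519 and 0.441). These comparisons share the ck libraries.

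Among genes lower in DS-L, TRINITY_DN9925_c0_g1 had 2.77, 1.89 and 3.20 CPM in DS-L, against 27.0, 26.03 and 31.6 CPM in Y-L. It had the widest gap of the 4 genes, with the lowest Y-L library 8.13-fold above the highest DS-L library. Means were 2.62 ± 0.670 CPM in DS-L and 28.2 ± 2.97 CPM in Y-L (SD, n = 3 each), and the log2 difference was -3.43 (SE 0.60, edgeR adjusted p = 0.258). Its ck mean was 6.10 ± 2.12 CPM (SD, n = 3), and Y-L differed from ck by 2.21 on the log2 scale (SE 0.56, edgeR adjusted p = 0.427). In DS-S the 3 libraries stood at 6.80, 10.03 and 42.0 CPM, a spread that covered the whole of Y-L.

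TRINITY_DN25224_c0_g1 had 3.44, 3.23 and 3.92 CPM in DS-L, against 27.6, 6.45 and 55.3 CPM in Y-L. DS-L was tight and Y-L uneven, with Y-L replicate 2 nearest to DS-L. The log2 difference was -3.08 (SE 0.56, edgeR adjusted p = 0.258), from means of 3.53 ± 0.352 CPM in DS-L and 29.8 ± 24.5 CPM in Y-L (SD, n = 3 each). The 3 ck libraries lay between the groups except for Y-L replicate 2, with a mean of 11.7 ± 0.240 CPM (SD, n = 3). Without Y-L replicate 2 the log2 difference was -3.55 and the edgeR adjusted p 0.0128, and without Y-L replicate 3 they were -2.27 and 0.723. The authors' FPKM, which divides by length, set TRINITY_DN5820_c0_g1 highest of the 4 in DS-L, at a mean of 531 FPKM, and TRINITY_DN9925_c0_g1 lowest, at 2.31 FPKM. In Y-L the highest was again TRINITY_DN5820_c0_g1, at 74.0 FPKM, and the lowest TRINITY_DN11395_c0_g1, at 1.09 FPKM.

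**Figure D3:**
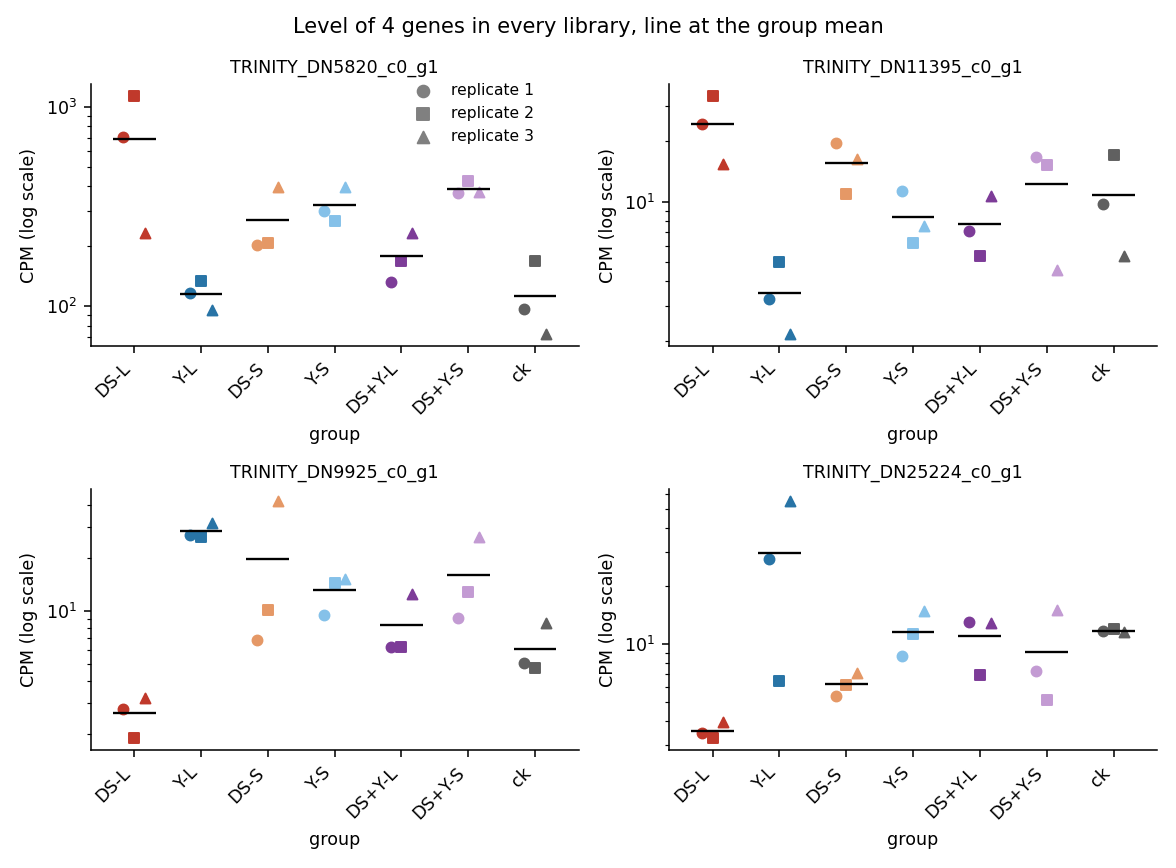
CPM on a log axis in each of the 21 libraries for 4 genes, by group, with the line at the mean of 3 libraries. DS-L lies above Y-L in the upper panels and below it in the lower panels, and in TRINITY_DN9925_c0_g1 DS-S spreads from 6.80 to 42.0 CPM.

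The most abundant transcripts were examined next, as the 100 genes with the highest mean FPKM over the 6 libraries. These took 14.2%, 8.68% and 19.0% of all counts in DS-L replicates 1 to 3, and 13.1%, 17.2% and 15.2% in Y-L replicates 1 to 3. The means were 13.96 ± 5.17% in DS-L and 15.2 ± 2.04% in Y-L (SD, n = 3 each), and the groups overlapped (exact permutation p = 0.8, two-sided; adjusted over 4 library measures, 0.9). Of the 100 genes, 0 lay above Y-L in all DS-L libraries and 13 lay below, where 7.44% and 9.01% of all tested genes did so. Among tested genes of 100 CPM or more the shares were 5.34% and 10.5%. At an unadjusted p under 0.05 in edgeR, 7 of the 100 were higher in DS-L and 9 lower. Among all tested genes 4.3% were higher and 4.67% lower at that threshold. Log2 differences over the whole list ran from -3.96 to 5.85. Scaling by library totals gave 1 gene wholly above and 16 wholly below. Ranking genes by their share of counts gave 2 and 9, with 48 genes on both lists. FPKM favours short genes, and the gene at 5.85 had 12443 FPKM in DS-L replicate 2 from only 22.5 CPM. Its DS-L replicates 1 and 3 stood at 11.5 and 0.131 CPM. Its Y-L libraries stood at 0.488, 0 and 0.0588 CPM, so the groups overlapped.

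The 13 genes had log2 differences from -3.96 to -0.46. Of these, 7 passed an unadjusted p under 0.05 in edgeR, against 8.97% of all tested genes, though their choice as genes without overlap favours this. Together they took 0.822%, 0.645% and 0.962% of the counts in DS-L, against 2.48%, 2.13% and 3.68% in Y-L. The direction of this contrast came with their choice as genes wholly below Y-L, so it supports nothing. The largest difference among them, singled out after its values were seen, belonged to a gene at 520, 461 and 655 CPM in DS-L, against 6861, 4584 and 14018 CPM in Y-L. Its lowest Y-L library was 7.002-fold above its highest DS-L library, and the log2 difference was -3.96 (SE 0.91, edgeR adjusted p = 0.393). Its ck libraries lay below both groups, at 300, 257 and 248 CPM. DS+Y-L held both kinds of level, with 571 and 315 CPM in replicates 1 and 2 and 5198 CPM in replicate 3. At suffix S the groups overlapped, with 1807, 2115 and 365 CPM in DS-S and 991, 2177 and 1339 CPM in Y-S.

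Some genes were counted in 1 of the groups only. At least 5 counts in each DS-L library and 0 in each Y-L library were found for 29 of the 97500 identifiers, and the reverse for 45. Only 11 of the 29 and 37 of the 45 passed the low-count filter and were tested. Their counts summed over the 3 libraries had a median of 23 in the DS-L genes and 43 in the Y-L genes, and 1 of the 29 and 10 of the 45 reached 100. The highest of the DS-L genes had 29, 65 and 9 counts, which is at least 33.6-fold above the 3 counts over the Y-L group that a count of 0 allows. The highest of the Y-L genes had 283, 134 and 274 counts, at least 236-fold above the same limit in DS-L. These bounds cover counting error only. Every one of these genes had counts elsewhere in the series, since 0 of the 29 and 0 of the 45 were at 0 throughout the 15 libraries of the remaining groups. The gene with 283, 134 and 274 counts in Y-L had 1, 52 and 470 counts in DS-S and from 3 to 5 in ck.

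The same treatment labels at suffix S, whose 6 libraries share none with DS-L or Y-L, showed whether the differences recurred. DS-S and Y-S did not overlap in 2124 genes, or 5.56% of those tested, with 2.8% above and 2.76% below. edgeR called 0 genes there (0%) and put 348, or 0.911%, under an unadjusted p of 0.05, and the median absolute log2 difference was 0.27, against 0.54 for DS-L and Y-L. Across the 15849 genes averaging 5 CPM or more, the differences at L and at S, as means of log2 CPM at S, correlated at r = 0.396. Genes are not independent replicates, and all of these points come from the same 12 libraries.

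Among the 385 genes higher in DS-L, the DS-S mean lay above the Y-S mean in 276 (71.7%), where 45.8% of all tested genes with 5 CPM or more in DS-L or Y-L did so. Among the 803 genes lower in DS-L, it lay below in 616 (76.7%), where 54.2% of those genes did so. These are means of log2 CPM. By the differences fitted in edgeR the counts were 262 (68.1%) and 653 (81.3%), against 43.2% and 56.8% of those genes. Both shares by means of log2 CPM rested on Y-S replicate 3. Without it they were 51.4% and 46.0%, against 52.8% and 47.2% of all such genes, and the correlation across genes was 0.0789. Leaving out any of the other 5 libraries of suffix S gave shares from 67.01% to 77.9% and from 66.5% to 88.7%.

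**Figure D4:**
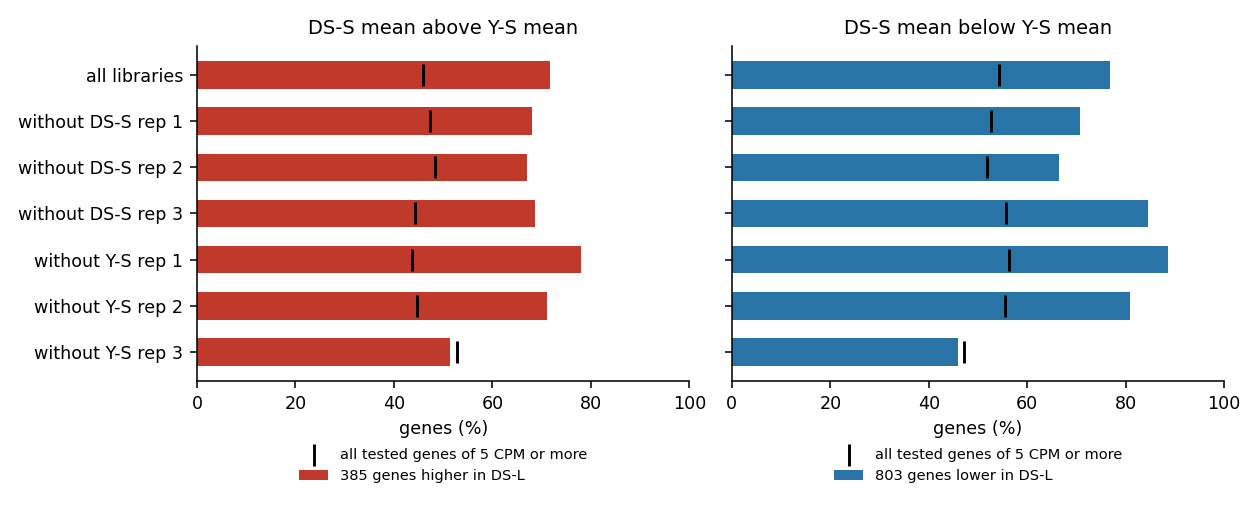
Share of the 385 genes higher in DS-L whose DS-S mean lies above the Y-S mean (left) and of the 803 genes lower in DS-L whose DS-S mean lies below (right), with all libraries and without each suffix S library. Means are of log2 CPM. Ticks mark the same share over all tested genes of 5 CPM or more in DS-L or Y-L, and the bars lie under them, at 51.4% and 46.0%, only without Y-S replicate 3.

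The test of the difference itself, DS minus Y at suffix L less DS minus Y at suffix S, called 0 genes in edgeR (0%), with 1030 at an unadjusted p under 0.05, or 2.7%. With DESeq2 the count was 30, and with weighted limma-voom 224. For the 4 genes, this departure was 2.83 (SE 0.65) in TRINITY_DN5820_c0_g1, 1.91 (SE 0.72) in TRINITY_DN11395_c0_g1, -4.01 (SE 0.80) in TRINITY_DN9925_c0_g1 and -2.18 (SE 0.75) in TRINITY_DN25224_c0_g1 on the log2 scale, each with an edgeR adjusted p of 1. Averaged over both suffixes, DS against Y gave 0 calls in edgeR (0%), with 2522 genes or 6.6% at an unadjusted p under 0.05 and 0.605 the smallest adjusted p. The calls numbered 166 in DESeq2 and 1251 in limma-voom.

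Levels of the 385 and 803 genes were then followed over all 21 libraries, as the median log2 CPM relative to each gene's mean over groups. In the 385 genes the DS-L libraries stood at 0.81, 1.08 and 0.40 and the Y-L libraries at -0.58, -0.62 and -0.77. In the 803 genes the DS-L libraries stood at -0.66, -1.03 and -0.41 and the Y-L libraries at 0.87, 0.98 and 1.04. DS-L replicate 3 was the DS-L library nearest to Y-L in both sets, and was the lowest of its group in 262 of the 385 genes (68.1%) and the highest in 517 of the 803 (64.4%).

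The same genes varied widely between replicates of some of the other groups, which the choice of genes did not use. In the 803 genes, Y-S replicate 3 stood at 1.01 and Y-S replicate 1 at -0.38. DS+Y-S ran from -0.84 in replicate 1 to 0.70 in replicate 3, and ck from -0.76 in replicate 2 to 0.28 in replicate 3. The within-group ranges, highest less lowest library, were thus 1.39 for Y-S, 1.54 for DS+Y-S and 1.04 for ck. DS-S and DS+Y-L were narrower, at 0.34 and 0.45. The gap between the nearest DS-L and Y-L libraries, a different measure from a range, was 1.29. In the 385 genes the ranges were 0.76 for Y-S, 1.18 for DS+Y-S and 0.70 for ck, beside a gap of 0.97. DS-S ranged over 0.12 and DS+Y-L over 0.27. Y-S replicate 3 and DS+Y-S replicate 3 lay at the low end of their groups, at -0.59 and -0.56. In every group except DS+Y-L, replicate 3 was the lowest library in the 385 genes and the highest in the 803. In DS-S the margin in the 385 genes was small, at 0.061 against 0.068 in replicate 2. What the replicate numbers stand for is not stated, and a shift shared by replicate 3 was not tested for these sets. DS+Y-S replicate 1 had counts on 36755 genes, the fewest of all libraries, and its part in these ranges was not tested.

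**Figure D5:**
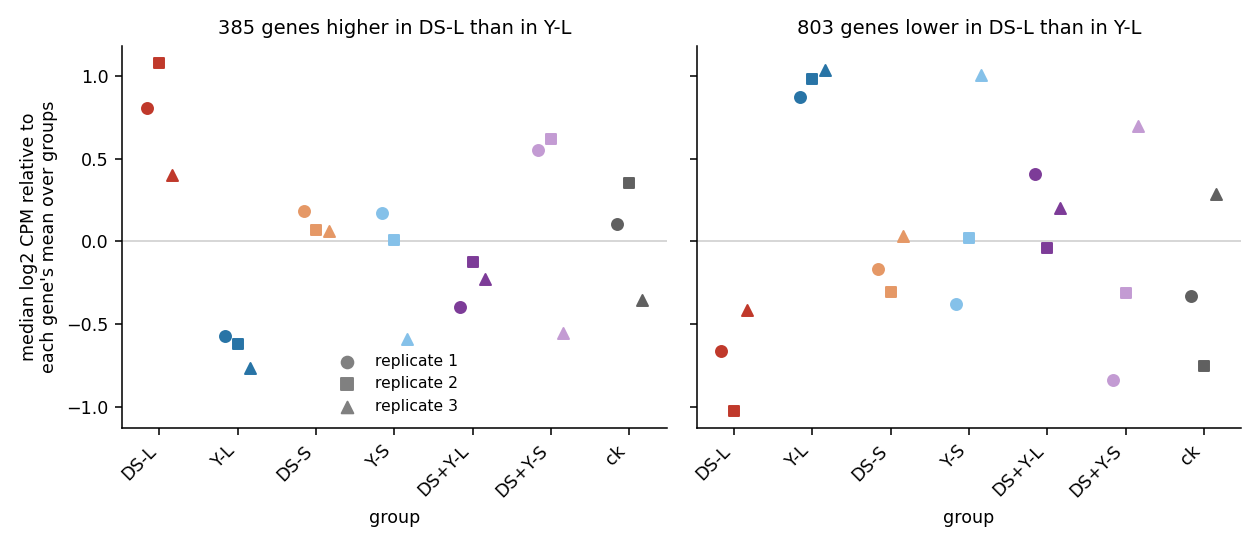
Median log2 CPM relative to each gene's mean over the 7 groups, in each of the 21 libraries, for the 385 genes higher (left) and the 803 genes lower (right) in DS-L than in Y-L. Points are libraries, with DS-L and Y-L apart by choice of the genes. In the right panel Y-S runs from -0.38 to 1.01, DS+Y-S from -0.84 to 0.70 and DS-S only from -0.31 to 0.03.

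Against ck, the 385 genes had a median log2 difference of 0.74 in DS-L and -0.85 in Y-L, and the 803 genes -0.70 in DS-L and 1.05 in Y-L, in comparisons that share the ck libraries. By these medians ck lay between DS-L and Y-L in both sets, but so did every group outside the choice. Relative to each gene's mean over groups, medians in the 385 genes were 0.79 in DS-L and -0.71 in Y-L. The remaining groups ran from -0.19 in DS+Y-L to 0.17 in DS+Y-S, with ck at 0.05. In the 803 genes they ran from -0.26 in ck to 0.21 in Y-S, between -0.72 in DS-L and 0.96 in Y-L. The genes were chosen for DS-L and Y-L lying apart, so the place of ck between them supports nothing. The combined label DS+Y-L, whose libraries the choice did not use, lay below the midpoint of DS-L and Y-L in 64.4% of the 385 genes, with a median of -0.30 from the midpoint on the log2 scale. In the 803 genes it lay below the midpoint in 49.9%, with a median of 0.00278. Over all tested genes DS+Y-L lay below the midpoint in 51.99%. DS+Y-S lay above the midpoint in 59.2% of the 385 genes, 34.1% of the 803 and 42.2% of all tested genes. The midpoint was computed from the libraries that chose the genes, so it can shift with the choice, and these shares support nothing.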

How the data were processed

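The authors deposited 1 table, which holds whole-number counts and the authors' FPKM values for 97500 Trinity-style identifiers in 21 libraries, per the file headers. The sources used here do not state how reads were counted, which length entered FPKM or whether counts are rounded estimates. Groups and replicate numbers came from the sample titles, which give 7 groups where the design text of the series gives 4.

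The test was edgeR 4.0.16, run in R 4.3.3. filterByExpr by group left 38211 genes, scaling was by TMM, and glmQLFit and glmQLFTest used all 21 libraries in 7 groups. A call needed an adjusted p (Benjamini-Hochberg, over all tested genes) below 0.05. Standard errors are the absolute log2 difference over the square root of F. Log2 CPM used a prior count of 2. DESeq2 1.42.0 and limma 3.58.1 served as alternatives. Pairs of libraries within DS-L and within Y-L had a chi-square per degree of freedom from 48.9 to 181, so none of these 6 repeated another. Single values were compared by exact permutation.

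The comparison, the rules and the tests were chosen with earlier results of these data known. The rule for named genes took, among genes without overlap, with an absolute log2 difference of at least 1 and at least 5 CPM in the higher group, the 2 on each side with the smallest p.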

Additional observations from a re-analysis of the deposited data

How the results depend on the processing

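DS-L against Y-L gave 0 calls in edgeR, also with DESeq2 size factors, a robust spread, a log2 minimum of 1, only the 6 libraries compared, or without the DS+Y-S group. Without a low-count filter it gave 1387 of 97456 genes, of which 1351 were among the 38211 of the main test. On those 38211 it gave 336 in DESeq2, 4430 in limma-voom with library weights and 2 with the replicate number as a block. Leaving out 1 library gave from 0 to 5 calls, with 5 without DS-L replicate 3 on the same genes (4 with the filter applied again) and 1 without Y-L replicate 2. The difference between suffixes gave 291 without the filter, 30 in DESeq2 and 224 in limma-voom, and the average over suffixes 1233, 166 and 1251. The average gave from 0 to 1 when 1 library was left out. The block moved neither of these from 0. Same-numbered libraries of DS-L and Y-L had deviations correlated at -0.0449, 0.00983 and 0.105. Only number 3 correlated best with its own number, so the numbers were not taken as pairs. That check covered DS-L and Y-L only. In every group except DS+Y-L, replicate 3 was the lowest library in the 385 genes and the highest in the 803.

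Non-overlapping genes numbered 1084 above and 1678 below among the 15849 genes averaging 5 CPM or more, fewer than the 38211 tested. The share of variation ran from 29.6% to 34.7% under other prior counts and that filter. The 4 named genes kept their direction in all 21 alternatives each. They were chosen for DS-L and Y-L libraries that did not overlap, so this was nearly fixed by the choice and supports nothing. Without DS-L replicate 2 all 4 had an edgeR adjusted p of 1, with TRINITY_DN5820_c0_g1 at 2.04 on the log2 scale, and without DS-L replicate 1 all 4 had 0.891. TRINITY_DN9925_c0_g1 had 0.0179 under the block, TRINITY_DN5820_c0_g1 0.0208 without DS-L replicate 3 and TRINITY_DN25224_c0_g1 0.0128 without Y-L replicate 2. All 4 passed in DESeq2, limma-voom and edgeR without the filter. The shares at suffix S without single libraries, and other scalings of wide gaps and abundant genes, were chosen after seeing the data. The count of 616 was 369 without Y-S replicate 3. The median standard error of 0.77 limits what 3 against 3 libraries can show. The causes of these moves were not tested.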
